A study of Mus musculus with 24 samples.

Results

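The genes of the mitochondrial ribosomal proteins were followed through activation, differentiation and recall of mouse CD4 T cells. Members were all rows of the count tables whose symbol begins with Mrpl or Mrps and a number, apart from pseudogenes, which gave 76 of 23420 genes. Of these, 47 carry an Mrpl and 29 an Mrps symbol. By the known structure of the particle, 49 belong to the large subunit, among them Mrps18a and Mrps30, and 26 to the small subunit. The remaining 1, Mrps36, was named as a ribosomal protein but is now known as a component of the 2-oxoglutarate dehydrogenase complex. Reads of all 76 were abundant enough to be tested.

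Mitochondria keep their own ribosomes, which descend from those of bacteria and translate the few proteins encoded in mitochondrial DNA, all of them subunits of the respiratory chain and the ATP synthase. Their RNA is transcribed inside the mitochondrion, whereas every one of their proteins is encoded in the nucleus, made in the cytosol and imported. Part of these proteins have bacterial counterparts and part were added during the evolution of mitochondria. T cells that leave quiescence grow and expand their mitochondria.

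There were 4 groups of 6 libraries. Reactivated TH1 cells had spent 5 days in culture becoming TH1 cells, the helper type that makes interferon-gamma, followed by 6 hours with macrophages carrying antigen. TH1 effector cells went through the same 5 days and were not stimulated again. Activated naive cells received a stimulus for 6 hours, whose nature the labels leave out, and naive cells had been isolated from spleens. All cells were of the genotype OT2Nur77GFP+/- on a C57BL/6 background: transgenes encode the OT-II receptor for an ovalbumin peptide, and the Nr4a1 (Nur77) promoter of a further transgene drives green fluorescent protein and Cre. Cells of all groups were sorted before lysis, and the gates are not described. As TH1 cells with macrophages but without antigen were not among the groups, the effects of antigen and of macrophages cannot be told apart. Whether libraries of 1 group stem from different animals or cultures is not stated, and p-values therefore measure the spread between these libraries, which may be technical.

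Between 18457653 and 34262645 counts per library fell in genes. Each group had 3 libraries in each of 2 batches, called runs here, which entered the model. They were inferred from a code in the names of the deposited counts, which divides replicates 1 to 3 from 4 to 6 in every group. A sequencing run and any other batch can therefore not be told apart. T cell markers (5 of 6 in the tables) summed to between 1959 and 3329 CPM (counts scaled to an equal library size) in every library. The 8 macrophage markers summed to 9.55 to 14.1 CPM in reactivated TH1, 3.32 to 4.67 CPM in TH1 effector, 9.30 to 11.7 CPM in activated naive and 7.45 to 10.9 CPM in naive libraries. All 8 were detected in reactivated TH1 cells (Lyz2 at 5.98 CPM in reactivated TH1 against 0.0697 CPM in TH1 effector cells, Csf1r at 0.724 CPM against 0). Mrc1 (0.298 CPM against 0.862 CPM) and Cd14 (0.358 CPM against 0.416 CPM) had lower means in reactivated TH1 cells, and the other markers of this list higher ones. Most of the sum in activated naive cells was Cd68, at 9.985 CPM. In TH1 effector cells Emr1, Csf1r and Fcgr1 were at 0, in activated naive cells Csf1r and Fcgr1, and in naive cells Cd14 and Fcgr1. B cell markers, all 5 detected in every group, summed to 0.452 to 1.25 CPM in reactivated TH1, 2.22 to 19.2 CPM in TH1 effector, 0.302 to 0.676 CPM in activated naive and 1.11 to 3.67 CPM in naive libraries. The 5 dendritic cell markers summed to 7.09 to 10.6 CPM in reactivated TH1 libraries, mostly Zbtb46, against at most 3.60 CPM in any other library, with Xcr1 at 0 in all groups and Clec9a at 0 in naive cells. The 4 markers of CD8 and NK cells summed to 4.21 to 7.55 CPM in stimulated and TH1 libraries, against 23.2 to 30.8 CPM in naive ones, mostly Cd8b1. Ncr1 was at 0 in all groups other than TH1 effector cells. Reads outside annotated genes made up 15.6% of the counted reads in reactivated TH1, 17.2% in TH1 effector, 22.8% in activated naive and 23.1% in naive libraries on average. The part of other cell types and of this share in the results was not tested.

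As a sum, the members stood highest in reactivated TH1 cells and lowest in naive cells. Their summed level averaged 3975 CPM in reactivated TH1 (range 3656 to 4231), 2683 CPM in TH1 effector (2435 to 2883), 3445 CPM in activated naive (3272 to 3644) and 1982 CPM in naive libraries (1928 to 2053), n = 6 each. No groups overlapped. As a share of all counts in genes, the members took up 0.380 ± 0.0160% in reactivated TH1, 0.279 ± 0.0207% in TH1 effector, 0.326 ± 0.0113% in activated naive and 0.211 ± 0.00416% in naive libraries (SD). The amount of RNA per cell was not measured, and in bulk RNA fewer cells with a transcript and less of it per cell cannot be told apart.

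Means of both subunits followed this order. Large-subunit genes summed to 2509 to 2907 CPM in reactivated TH1, 1702 to 2026 CPM in TH1 effector, 2194 to 2421 CPM in activated naive and 1319 to 1392 CPM in naive libraries, without overlap. Small-subunit genes summed to 1127 to 1302 CPM in reactivated TH1, 719 to 845 CPM in TH1 effector, 1064 to 1209 CPM in activated naive and 604 to 656 CPM in naive libraries, so here both stimulated groups overlapped. The summed level of large-subunit genes was 2.24 ± 0.01 times that of small-subunit genes in reactivated TH1, 2.39 ± 0.02 in TH1 effector, 2.03 ± 0.04 in activated naive and 2.17 ± 0.04 in naive libraries (SD, n = 6 each). This ratio was lower after stimulation in both pairs of groups, with no overlap between stimulated and unstimulated libraries of a pair. Single genes can weigh heavily in such sums. Mrps6 averaged 79.4 CPM in activated naive against 8.30 CPM in naive libraries, and Mrps18b 93.9 against 18.5 CPM. The median log2 fold change on activation was larger in the large (0.79) than in the small subunit (0.56), so the ratio does not describe the typical gene. The part of Mrps6 and Mrps18b in it was not tested. Both kinds of stimulated cells also differed from their unstimulated partners when the members were set against the ribosome of the cytosol. The summed level of 84 cytosolic ribosomal protein genes was 22.3 ± 1.56 times that of the members in reactivated TH1, 36.4 ± 1.61 in TH1 effector, 19.2 ± 0.56 in activated naive and 34.4 ± 1.08 in naive libraries. Unstimulated libraries of both kinds lay between 32.5 and 38.5 and stimulated ones between 18.3 and 24.3.

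**Figure D1:**
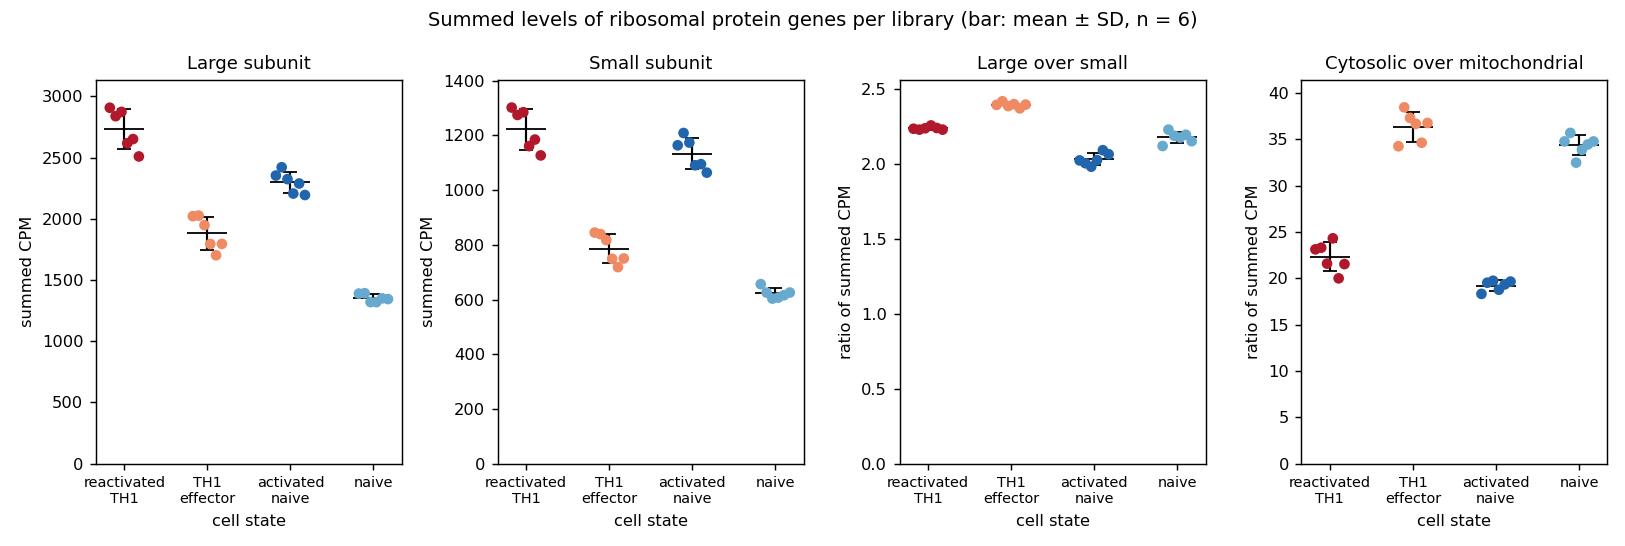
Summed CPM of the large-subunit genes and of the small-subunit genes, the ratio of both sums, and the ratio of cytosolic to mitochondrial ribosomal protein genes, with 1 point per library in each cell state and a bar for the mean ± SD (n = 6). Both sums are highest in reactivated TH1 and lowest in naive libraries, and the cytosolic to mitochondrial ratio is between 18.3 and 24.3 in stimulated libraries and between 32.5 and 38.5 in unstimulated ones.

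Levels of different genes can be compared only per length of transcript. Scaled by the summed exon length of each gene (TPM), the median member stood at 67.8 TPM in reactivated TH1, 52.0 TPM in TH1 effector, 56.5 TPM in activated naive and 44.4 TPM in naive cells. Over all 24 libraries the highest averages were 232.4 TPM for Mrpl12, whose product forms the flexible stalk that recruits translation factors, 179.7 TPM for Mrpl54 and 161.6 TPM for Mrpl24, a protein near the exit of the peptide tunnel. The lowest were 10.3 TPM for Mrpl48, 12.2 TPM for Mrps35 and 13.3 TPM for Mrps25. The mRNA levels of members spanned a wide range in every group, for instance from 10.6 to 337 TPM in reactivated TH1 and from 8.27 to 233.6 TPM in naive cells. The order rests on the length used: with the median length of coding transcripts, Mrpl20 stood first at 176 TPM and Mrpl12 at 114 TPM, and Mrps25 stood last at 6.03 TPM. The order of members was more alike between both stimulated groups (Spearman correlation across 76 genes 0.904) and between both unstimulated groups (0.908) than between reactivated TH1 and TH1 effector cells (0.872) or activated naive and naive cells (0.758). All groups share the same lengths in this.

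Stimulation of naive cells was followed by higher levels of most members within 6 hours. Of the 76 genes, 63 were higher in activated naive than in naive cells, 7 were lower and 6 did not pass the test (edgeR quasi-likelihood test, Benjamini-Hochberg adjusted over 12584 genes, adjusted p under 0.05). Over all tested genes, 41.3% passed as higher and 40.5% as lower, together 81.9%, against 70 of the 76 members. The median log2 fold change of the members was 0.70, with quartiles at 0.32 and 1.10, whereas the median of all genes was 0.00. It was 0.72 in the first and 0.69 in the second run alone. At least 2-fold changes were found for 21 genes in the higher direction and for 1 in the lower, against 21.2% and 23.2% of all genes. For 58 members all 6 activated libraries lay above all 6 naive ones, which held for 33.3% of all genes, and for 5 all lay below (33% of all genes).

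The large subunit counted 41 higher and 6 lower among 49 (median 0.79) and the small subunit 21 higher and 1 lower among 26 (median 0.56). The members were also divided into proteins with bacterial counterparts and those added in mitochondria. In the small subunit, 14 of 16 genes of bacterial origin were higher and none lower (median 0.62), as were 7 of 10 mitochondrial additions, with 1 lower (median 0.52). In the large subunit the counts were 24 higher and 4 lower of 30 (median 0.78) for those of bacterial origin and 18 higher and 3 lower of 21 (median 0.67) for mitochondrial additions. The last list holds 2 genes, Mrp63 and Ict1, that are known ribosomal proteins under older symbols and lie outside the members.

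**Figure D2:**
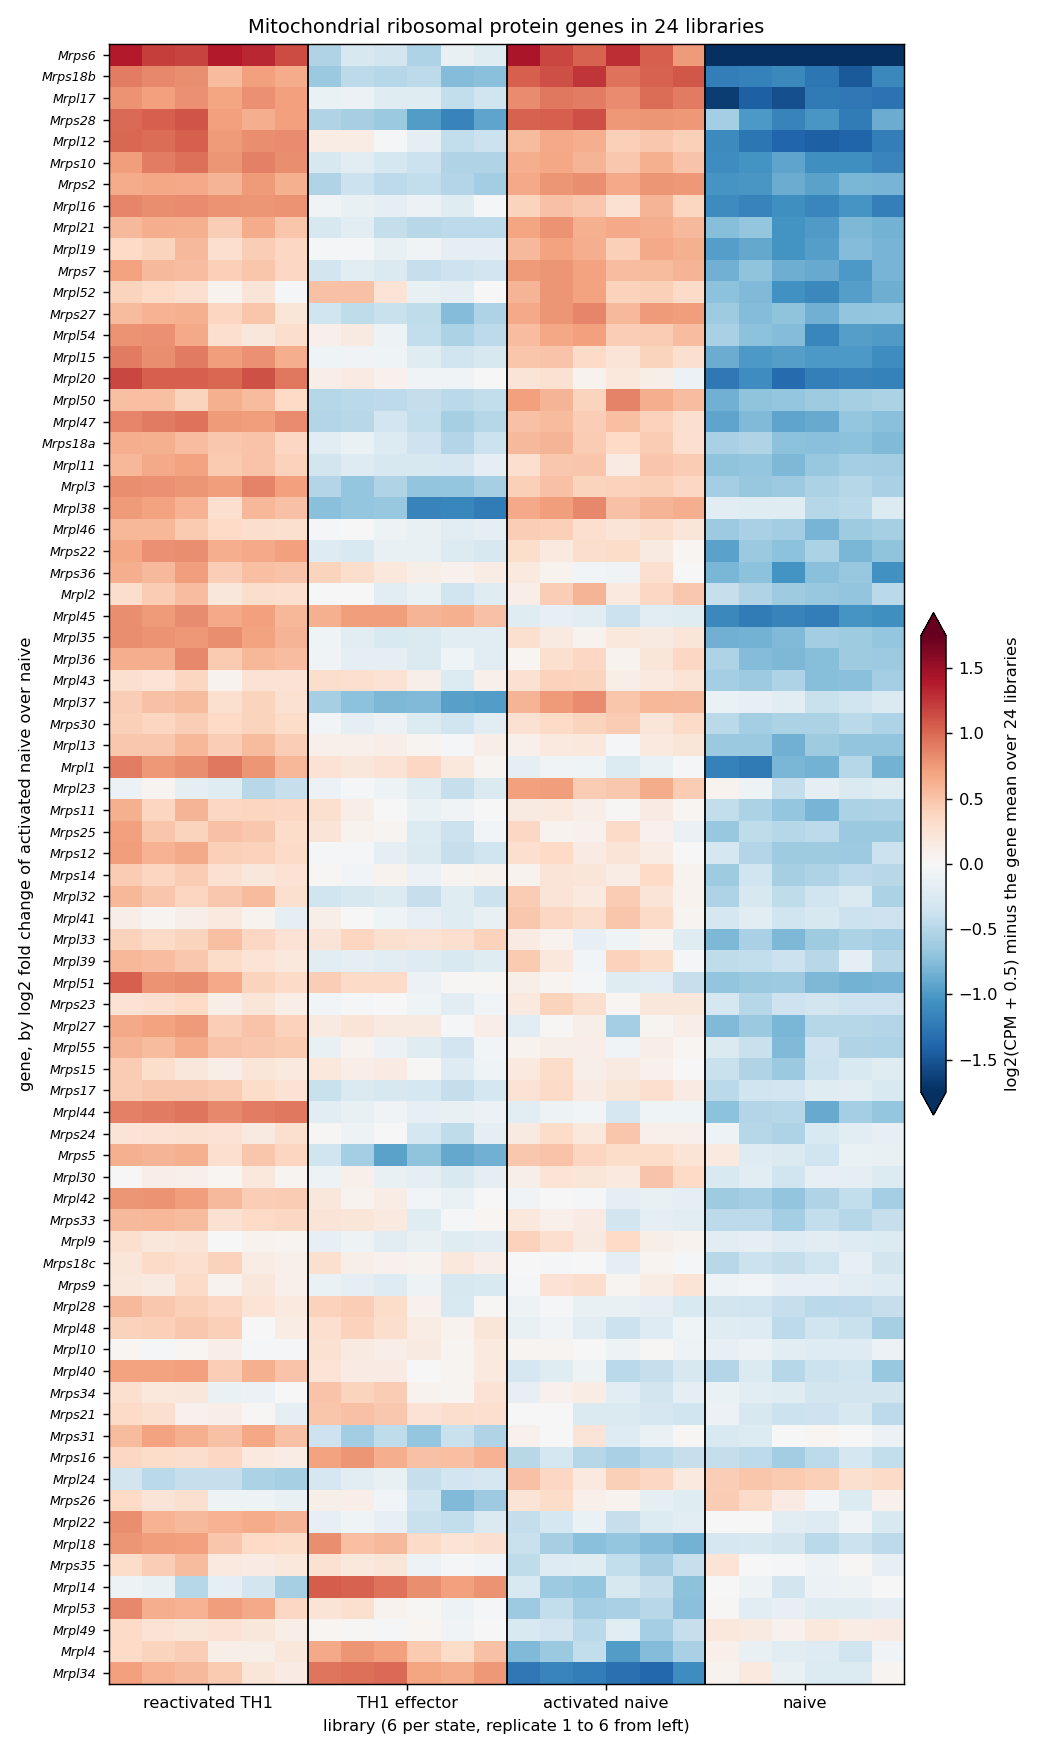
Level of each of the 76 genes in each of the 24 libraries, as log2(CPM + 0.5) minus the mean of that gene over all libraries. Columns are the 6 libraries of each cell state, rows are ordered by the log2 fold change of activated naive over naive cells, red is above and blue below the gene mean, and arrows on the colour bar mark values beyond the scale. Most rows are blue in naive libraries and red in both stimulated states, and the lowest rows, such as Mrpl34 and Mrpl4, are red in TH1 effector and blue in activated naive libraries.

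Mrps6, a small-subunit protein with a bacterial counterpart, showed the largest difference. It had 60.8, 77.9 and 97.6 CPM in activated naive cells, against 7.23, 8.55 and 9.06 CPM in naive cells (lowest, median and highest of 6 libraries, as in all such triplets here). The lowest activated library was thus far above the highest naive one, at a log2 fold change of 3.26 ± 0.10 (SE) with an edgeR adjusted p of 3.20e-20. The gene shares 464 bases of exon on its own strand with other annotated genes. One of them, Slc5a3, a myo-inositol transporter gene, had 361 ± 28.5 CPM in activated naive and 22.9 ± 3.27 CPM in naive cells (log2 fold change 3.98), so the value of Mrps6 is uncertain to the extent that reads of both were mixed. Mrps18b had 85.3, 92.9 and 105 CPM in activated naive cells, against 15.6, 18.9 and 19.9 CPM in naive cells, again with no overlap (log2 fold change 2.34 ± 0.06, edgeR adjusted p 2.07e-21). Mrpl17, a large-subunit protein with a bacterial counterpart, had 76.9, 81.3 and 85.9 CPM in activated naive cells, against 13.3, 16.5 and 18.0 CPM in naive cells. Its groups did not overlap either, and the log2 fold change was 2.33 ± 0.07 (edgeR adjusted p 1.65e-20).

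Mrps28 followed with 33.4, 37.3 and 43.5 CPM in activated naive cells, against 8.07, 9.47 and 12.8 CPM in naive cells. All activated libraries were higher than all naive ones (log2 fold change 1.94 ± 0.08, edgeR adjusted p 3.15e-17). The stalk gene Mrpl12 had 114, 122 and 135 CPM in activated naive cells, against 31.4, 33.8 and 39.2 CPM in naive cells, without overlap, at a log2 fold change of 1.84 ± 0.06 (edgeR adjusted p 2.26e-19). Its product has also been described as a partner of the mitochondrial RNA polymerase.

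A minority of 7 members fell on activation. Mrpl34, the mitochondrial form of a small bacterial large-subunit protein, had 5.03, 5.60 and 6.22 CPM in activated naive cells, against 11.6, 13.4 and 15.6 CPM in naive cells. Every activated library lay below every naive one, and the log2 fold change was -1.25 ± 0.08 (edgeR adjusted p 4.26e-13). Mrpl4, whose product lines the tunnel through which new peptides leave, had 21.1, 25.5 and 30.9 CPM in activated naive cells, against 32.7, 37.7 and 44.8 CPM in naive cells, also without overlap (log2 fold change -0.56 ± 0.07, edgeR adjusted p 1.26e-07). Mrpl49 had 22.3, 26.2 and 29.7 CPM in activated naive cells, against 35.7, 37.7 and 38.8 CPM in naive cells. Mrpl53, a protein near the base of the stalk, had 9.11, 10.2 and 11.4 CPM in activated naive cells, against 13.3, 13.7 and 15.8 CPM in naive cells. Neither pair of groups overlapped, at log2 fold changes of -0.52 ± 0.05 for Mrpl49 and -0.44 ± 0.07 for Mrpl53 (edgeR adjusted p 7.88e-09 and 1.34e-05). Mrps35 was lower without overlap as well, at -0.39 ± 0.06. Mrpl14, which sits at the face between the subunits, and Mrpl18, of the central protuberance, were lower by the test, at -0.41 ± 0.11 and -0.29 ± 0.06, with libraries of both groups overlapping (edgeR adjusted p 0.00111 and 1.61e-04). Mrpl22, Mrpl24, Mrps16, Mrps21, Mrps26 and Mrps31 did not pass, with log2 fold changes between -0.16 for Mrpl22 and 0.12 for Mrps21. Exons of Mrpl18 overlap those of Tcp1 on the other strand and those of Mrpl49 overlap Syvn1. Both neighbours were higher on activation (log2 fold changes 1.65 and 1.61).

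To show the start regions of genes at both ends of this response, the promoter windows of the 3 members with the largest and the 3 with the smallest log2 fold change on activation are given, among the 67 of 76 members with a window in the table used. Each window runs from 250 bases before to 50 bases after the annotated start, written 5′ to 3′ on the strand of the gene, and comes from RefSeq on GRCm38.p6. Capitals mark matches on either strand to 4 motifs: GCATGCG, a part of the NRF1 motif, CCGGAAG, a core of ETS factors such as GABP, AAGATGG, a core of YY1, and CACGTG, the E-box bound by MYC and its relatives. Matches that overlap run together, and CGCATGCG holds GCATGCG on both strands. The windows are Mrps6 at chr16:92058086-92058385 (plus strand), Mrps18b at chr17:35916391-35916690 (minus), Mrpl17 at chr7:105811038-105811337 (minus), Mrpl34 at chr8:71464676-71464975 (plus), Mrpl49 at chr19:6057706-6058005 (minus) and Mrpl53 at chr6:83108858-83109157 (plus).
Mrps6: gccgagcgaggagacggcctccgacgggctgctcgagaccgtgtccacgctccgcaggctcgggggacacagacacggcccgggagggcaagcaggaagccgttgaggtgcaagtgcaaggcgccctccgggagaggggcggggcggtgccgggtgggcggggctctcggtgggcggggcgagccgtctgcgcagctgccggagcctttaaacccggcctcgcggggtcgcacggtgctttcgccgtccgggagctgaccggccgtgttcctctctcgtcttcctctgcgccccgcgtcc
Mrps18b: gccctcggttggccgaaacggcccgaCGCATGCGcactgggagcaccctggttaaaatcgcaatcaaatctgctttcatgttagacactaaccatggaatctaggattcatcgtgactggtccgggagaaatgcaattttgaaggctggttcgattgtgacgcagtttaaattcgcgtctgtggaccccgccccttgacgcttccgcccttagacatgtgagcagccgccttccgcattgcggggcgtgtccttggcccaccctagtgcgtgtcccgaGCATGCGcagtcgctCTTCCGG
Mrpl17: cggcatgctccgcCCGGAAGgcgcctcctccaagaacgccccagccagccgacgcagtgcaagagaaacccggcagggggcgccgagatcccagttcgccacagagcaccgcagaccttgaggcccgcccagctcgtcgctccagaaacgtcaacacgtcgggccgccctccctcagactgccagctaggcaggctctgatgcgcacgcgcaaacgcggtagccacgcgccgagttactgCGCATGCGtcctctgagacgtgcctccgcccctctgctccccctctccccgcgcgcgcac
Mrpl34: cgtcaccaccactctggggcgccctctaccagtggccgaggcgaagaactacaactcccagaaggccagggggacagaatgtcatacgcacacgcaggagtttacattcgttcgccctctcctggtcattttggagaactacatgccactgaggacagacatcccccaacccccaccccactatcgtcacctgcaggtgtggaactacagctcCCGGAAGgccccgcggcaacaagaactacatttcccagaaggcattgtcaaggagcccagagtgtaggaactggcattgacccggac
Mrpl49: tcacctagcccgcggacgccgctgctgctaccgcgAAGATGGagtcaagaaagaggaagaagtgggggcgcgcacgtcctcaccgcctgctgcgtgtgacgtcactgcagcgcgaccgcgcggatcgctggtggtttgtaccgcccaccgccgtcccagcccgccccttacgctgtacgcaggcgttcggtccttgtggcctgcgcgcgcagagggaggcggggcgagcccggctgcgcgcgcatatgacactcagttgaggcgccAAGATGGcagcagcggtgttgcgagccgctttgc
Mrpl53: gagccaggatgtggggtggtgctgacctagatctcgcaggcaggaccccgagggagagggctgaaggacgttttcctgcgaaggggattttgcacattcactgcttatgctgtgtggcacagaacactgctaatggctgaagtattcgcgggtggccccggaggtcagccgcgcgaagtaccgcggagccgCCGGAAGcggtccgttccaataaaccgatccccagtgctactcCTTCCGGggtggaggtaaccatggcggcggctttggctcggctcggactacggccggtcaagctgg

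Matches were present at both ends of the response. Mrps18b and Mrpl17 hold the NRF1 and ETS letters, Mrpl34 and Mrpl53 the ETS letters and Mrpl49 the YY1 letters, whereas Mrps6 holds none of the 4. Over all members, CCGGAAG was found in 24 of 73 windows (32.9%), against 2197 of 18561 windows of all counted protein-coding genes (11.8%). AAGATGG was found in 13 member windows (17.8%, against 6.38% of all windows), GCATGCG in 8 (11%, against 4.71%) and CACGTG in 7 (9.59%, against 8.19%). A gene can have several windows, and the 7 with CACGTG belonged to only 5 of 67 genes. Within the 100 bases before the start alone, the shares were 19.2% for CCGGAAG, 2.74% for AAGATGG, 6.85% for GCATGCG and 2.74% for CACGTG, against 6.17%, 1.45%, 2.39% and 3.69% of all windows. A match is a description of letters, not a bound site.

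TH1 effector cells, after 5 days of differentiation, also carried more of most members than naive cells. Here 58 genes were higher, 7 lower and 11 did not pass, against 44.6% of all tested genes higher and 40.3% lower (84.9% in either direction). The median log2 fold change was 0.53, whereas that of all genes was 0.06. It was 0.60 in the first run alone and 0.40 in the second. Changes of at least 2-fold were fewer than on activation, with 11 higher and none lower (25.2% and 16.4% of all genes). For 51 members all TH1 effector libraries lay above all naive ones (36.8% of all genes), and for 6 all lay below (32.1%). The large subunit had 39 higher and 4 lower (median 0.55) and the small subunit 18 higher and 3 lower (median 0.47).

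Mrpl45, which ties the large subunit to the inner membrane, led this comparison. It had 74.3, 80.2 and 86.8 CPM in TH1 effector cells, against 22.1, 23.2 and 25.1 CPM in naive cells, with no overlap, at a log2 fold change of 1.79 ± 0.04 (edgeR adjusted p 1.98e-20). Mrps6 came next with 24.5, 29.1 and 32.7 CPM in TH1 effector cells, against 7.23, 8.55 and 9.06 CPM in naive cells (log2 fold change 1.78 ± 0.10, edgeR adjusted p 8.66e-15). All TH1 effector libraries of both genes lay above all naive ones. Mrpl20, an early-binding large-subunit protein in bacteria, was higher by 1.26 ± 0.06, Mrpl12 by 1.19 ± 0.06 and Mrpl17 by 1.19 ± 0.07 on the log2 scale, all without overlap. Their highest edgeR adjusted p was 2.13e-14, for Mrpl17.

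In the other direction, Mrpl24 was the lowest member. It had 69.0, 74.6 and 83.4 CPM in TH1 effector cells, against 111, 123 and 128 CPM in naive cells, with every TH1 effector library below every naive one (log2 fold change -0.68 ± 0.05, edgeR adjusted p 2.21e-11). Mrpl38, of the central protuberance, had 17.5, 21.8 and 26.1 CPM in TH1 effector cells, against 29.4, 35.6 and 36.5 CPM in naive cells, also without overlap (log2 fold change -0.64 ± 0.06, edgeR adjusted p 2.53e-09). Mrps5 had 23.3, 26.2 and 35.1 CPM in TH1 effector cells, against 35.2, 39.8 and 50.9 CPM in naive cells. Its groups were separated by a narrow gap, at a log2 fold change of -0.58 ± 0.08 (edgeR adjusted p 4.57e-07). Mrpl37 and Mrps31 were lower without overlap at -0.56 ± 0.04 and -0.42 ± 0.08, and Mrps26 was lower at -0.39 ± 0.08 with overlap (edgeR adjusted p 9.15e-05 for Mrps26). The seventh, Mrpl49, was lower by a small margin of -0.15 ± 0.05 (edgeR adjusted p 0.0231). It did not pass in 6 of 16 alternative settings, among them the fit without replicate 2 (edgeR adjusted p 0.057) and each run alone (0.259 in the first and 0.15 in the second).

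Recall of TH1 cells by antigen-loaded macrophages was again accompanied by higher levels of most members. In reactivated TH1 against TH1 effector cells, 59 genes were higher, 8 lower and 9 did not pass, against 39.9% of all tested genes higher and 39.8% lower (79.7% in either direction). The median log2 fold change was 0.54, that of all genes was -0.00, and the members' median was 0.49 in the first and 0.54 in the second run alone. At least 2-fold changes were found for 14 genes in the higher direction and 1 in the lower (13.3% and 19.5% of all genes). In the large subunit 36 were higher and 5 lower (median 0.56), and in the small subunit 22 were higher and 3 lower (median 0.48). For 53 members the libraries of both groups did not overlap in the higher direction (30% of all genes), and for 2 in the lower (29.4%).

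Mrps28 had the largest difference, with 30.8, 35.9 and 42.6 CPM in reactivated TH1 cells, against 8.44, 11.2 and 13.5 CPM in TH1 effector cells. Every reactivated library was more than 2-fold above every resting one, and the log2 fold change was 1.71 ± 0.08 (edgeR adjusted p 8.57e-16). Mrps6 had 79.9, 87.2 and 95.1 CPM in reactivated TH1 cells, against 24.5, 29.1 and 32.7 CPM in TH1 effector cells (log2 fold change 1.62 ± 0.10, edgeR adjusted p 2.70e-14), and its neighbour Slc5a3 was higher too (log2 fold change 2.50). Neither member overlapped between groups. Mrpl38 had 51.4, 63.0 and 70.4 CPM in reactivated TH1 cells, against 17.5, 21.8 and 26.1 CPM in TH1 effector cells (log2 fold change 1.53 ± 0.06, edgeR adjusted p 1.33e-16). It was among the lowest members in TH1 effector against naive cells, and reactivated libraries all stood above resting ones. Mrpl3, close to the site of peptide bond formation, had 113, 118 and 125 CPM in reactivated TH1 cells, against 42.2, 44.0 and 47.5 CPM in TH1 effector cells (log2 fold change 1.40 ± 0.04, edgeR adjusted p 3.43e-19). Mrps18b had 64.7, 75.2 and 81.9 CPM in reactivated TH1 cells, against 25.7, 29.4 and 31.9 CPM in TH1 effector cells (log2 fold change 1.35 ± 0.06, edgeR adjusted p 2.42e-16). Both were free of overlap.

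Mrpl14 moved against the rest more than any other member on recall. It had 6.89, 8.87 and 9.89 CPM in reactivated TH1 cells, against 17.7, 19.9 and 22.5 CPM in TH1 effector cells. The reactivated libraries lay below all TH1 effector ones, at a log2 fold change of -1.23 ± 0.11 (edgeR adjusted p 7.01e-11). Its level in TH1 effector cells was also above that in naive cells (log2 fold change 1.03 ± 0.11), so reactivated and naive libraries were closer to each other than either was to TH1 effector ones. Mrps16 was lower at -0.35 ± 0.05 without overlap (edgeR adjusted p 9.57e-06). Mrpl34 at -0.38 ± 0.08, Mrpl4 at -0.32 ± 0.07, Mrps21 at -0.28 ± 0.06, Mrps34 at -0.22 ± 0.05, Mrpl24 at -0.18 ± 0.05 and Mrpl10 at -0.14 ± 0.03 were lower by the test while libraries overlapped. The highest edgeR adjusted p among them was 0.00767, for Mrpl10. In the second run alone, 5 rather than 8 members were lower, and Mrpl10, Mrpl24 and Mrps34 were the ones that no longer passed.

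**Figure D3:**
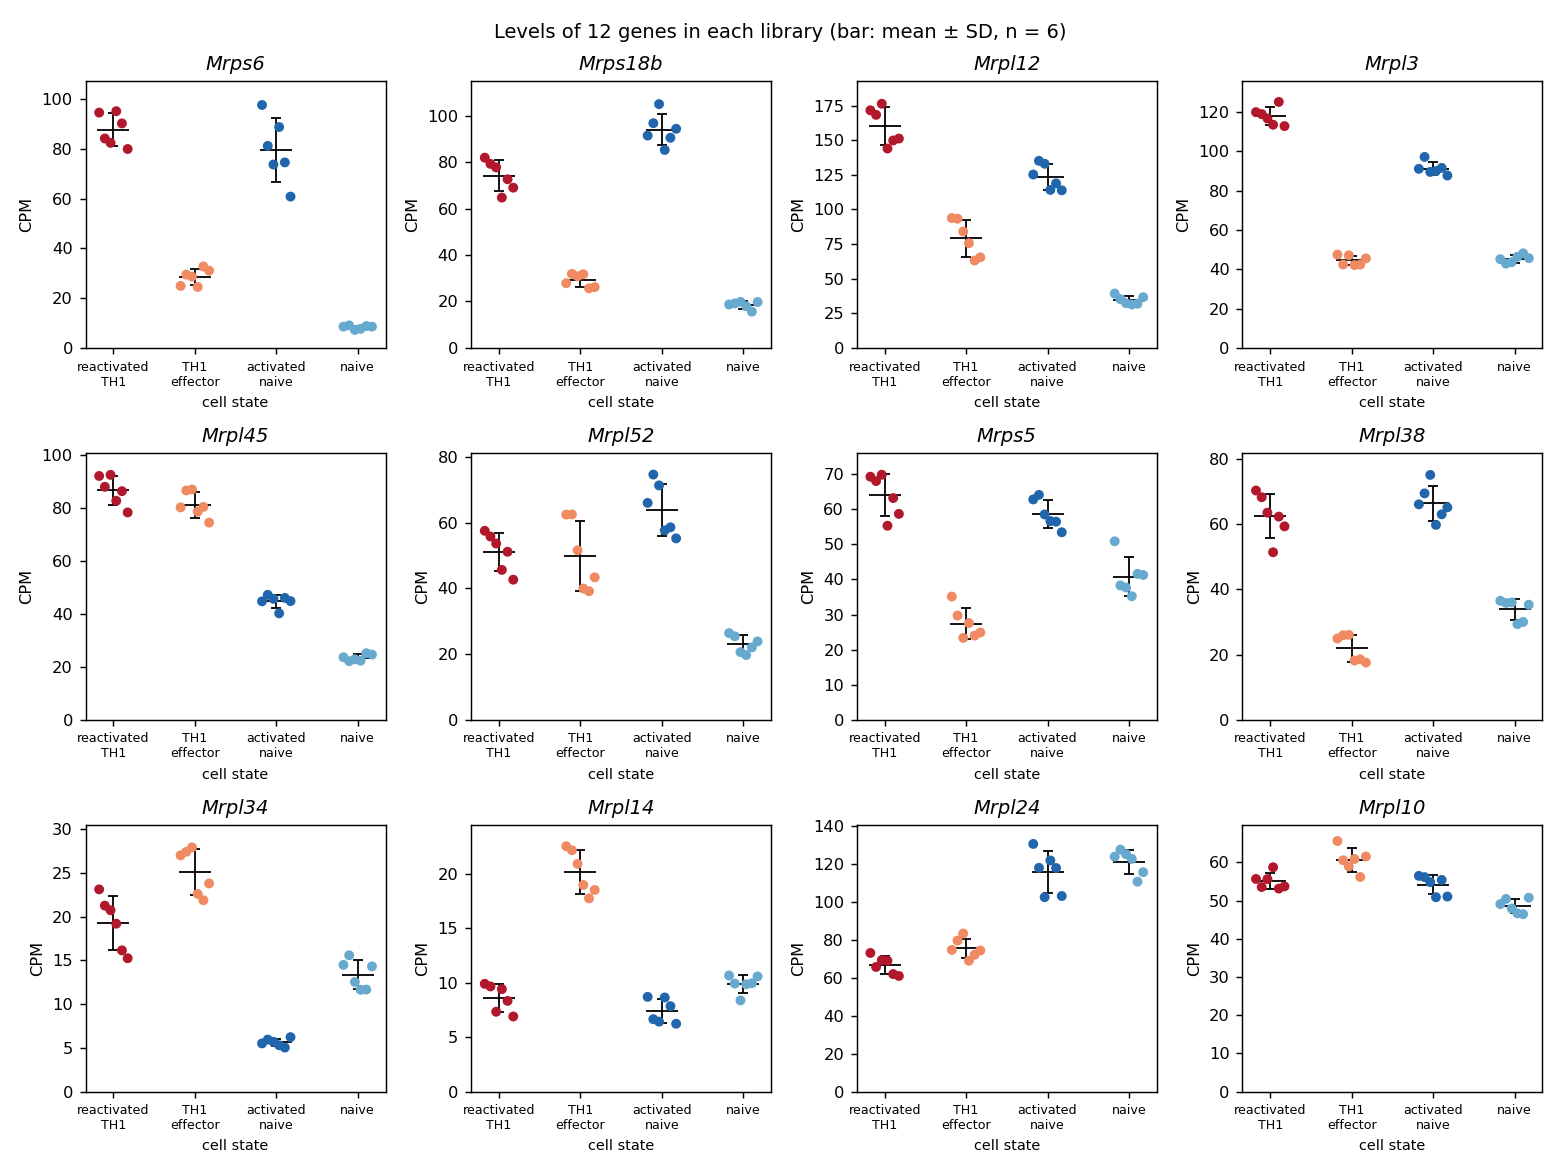
Level in CPM of 12 genes in each library, with a bar for the mean ± SD (n = 6) of each cell state. Mrps6, Mrps18b, Mrpl12 and Mrpl3 are higher in both stimulated states than in their unstimulated partners, Mrpl45 is highest in both TH1 states, Mrpl34 is lowest in activated naive cells (5.03 to 6.22 CPM) and Mrpl14 is highest in TH1 effector cells (17.7 to 22.5 CPM).

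Both responses to stimulation ran largely in parallel and share no library. Of the members, 53 were higher in activated naive over naive and in reactivated over resting TH1 cells, and 3 (Mrpl4, Mrpl14 and Mrpl34) were lower in both. Of all tested genes, 41.3% were higher on activation and 39.9% on recall, so at most 39.9% were higher in both. For lower genes the shares were 40.5% and 39.8%. How many of all genes passed in both was not counted. Mrpl10 and Mrps34 were higher on activation and lower on recall, and Mrpl49, Mrpl53 and Mrps35 were lower on activation and higher on recall. Across the 76 members the log2 fold changes of both responses had a Pearson correlation of 0.68 and a Spearman correlation of 0.65, against a Pearson correlation of 0.52 across 12584 genes. Genes are not independent replicates, and all values come from 1 fit.

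**Figure D4:**
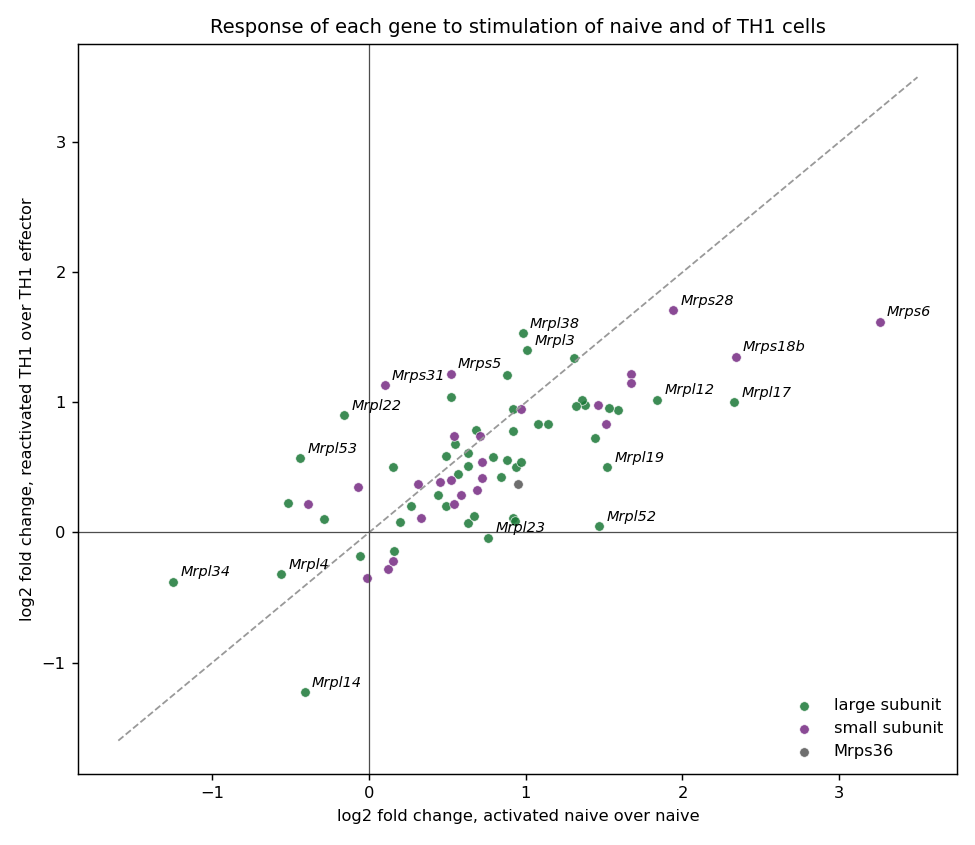
Log2 fold change of each gene on recall of TH1 cells (reactivated TH1 over TH1 effector, vertical axis) against that on activation of naive cells (activated naive over naive, horizontal axis), coloured by subunit, with a dashed line where both are equal. Most points lie in the upper right part and 53 of 76 lie below the line, that is, with the larger value in naive cells.

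The log2 fold change was lower in TH1 than in naive cells for many members. The difference between responses, TH1 minus naive, was tested directly. It was negative for 39 members, positive for 16 and did not pass for 21, against 33.7% and 34.3% of all tested genes (68% in either direction). A weaker fall in TH1 cells also counts as positive, as for Mrpl34 and Mrpl4, and a stronger fall as negative. As the stimulus of the naive cells is not given, cell state and kind of stimulus cannot be told apart in this difference. The median difference was -0.24, whereas that of all genes was -0.00. The members' median was -0.34 in the first and -0.19 in the second run alone, where 38 and 26 members passed with a negative difference.

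Mrps6 differed most. Its log2 fold change was 1.62 in TH1 and 3.26 in naive cells, a difference of -1.64 ± 0.14 (edgeR adjusted p 6.15e-11). For Mrpl52, of the central protuberance, it was 0.05 in TH1 and 1.47 in naive cells, a difference of -1.42 ± 0.11 (edgeR adjusted p 1.78e-11). Mrpl52 had 42.7, 52.5 and 57.6 CPM in reactivated TH1 cells, 39.2, 47.5 and 62.6 CPM in TH1 effector cells, 55.3, 62.4 and 74.7 CPM in activated naive cells and 19.7, 23.0 and 26.4 CPM in naive cells. Reactivated TH1, TH1 effector and activated naive libraries overlapped, while naive libraries stood apart below all others. Mrpl17 differed by -1.33 ± 0.10, Mrpl19 by -1.02 ± 0.08 and Mrps18b by -0.99 ± 0.08 (highest edgeR adjusted p of these 2.33e-10, for Mrps18b). The stalk gene Mrpl12 differed by -0.82 ± 0.09 (edgeR adjusted p 8.01e-09).

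In the opposite direction, Mrpl22, which lines the exit tunnel, had 27.1, 27.8 and 32.2 CPM in reactivated TH1 cells, 13.3, 15.7 and 17.2 CPM in TH1 effector cells, 13.4, 14.9 and 16.7 CPM in activated naive cells and 15.0, 16.5 and 18.1 CPM in naive cells. Only reactivated TH1 libraries stood apart, above all others. Its log2 fold change was 0.90 in TH1 and -0.16 in naive cells, where it did not pass, and the difference was 1.05 ± 0.09 (edgeR adjusted p 1.44e-09). Mrps31 had 27.0, 28.5 and 30.7 CPM in reactivated TH1 cells, 11.5, 13.3 and 14.4 CPM in TH1 effector cells, 16.0, 18.9 and 22.1 CPM in activated naive cells and 15.5, 18.0 and 19.2 CPM in naive cells. Here reactivated TH1 libraries were apart above and TH1 effector libraries apart below the other groups, with a difference between responses of 1.03 ± 0.11 (edgeR adjusted p 1.35e-08). Mrpl53, Mrpl34 and Mrpl49, all lower on activation of naive cells, differed by 1.02 ± 0.10, 0.87 ± 0.11 and 0.75 ± 0.07. Mrps5 (0.70 ± 0.12), Mrps35 (0.61 ± 0.08), Mrpl38 (0.55 ± 0.09), Mrpl44 (0.52 ± 0.08), Mrps26 (0.42 ± 0.12), Mrpl3 (0.40 ± 0.05), Mrpl18 (0.39 ± 0.08), Mrpl40 (0.35 ± 0.09) and Mrpl37 (0.33 ± 0.06) passed in this direction as well, with edgeR adjusted p-values of at most 0.00206. In the first run alone, those of Mrps26 and Mrpl40 did not pass (edgeR adjusted p 0.0561 and 0.0652). The differences of Mrpl4 (0.24 ± 0.10, edgeR adjusted p 0.0439) and Mrps17 (0.20 ± 0.07, edgeR adjusted p 0.0298) were small. Mrpl4 did not pass in 10 of 15 alternative settings, among them the fits without replicate 1, 2, 4 or 5 (edgeR adjusted p 0.179, 0.0704, 0.127 and 0.0747). Mrps17 did not pass in 8 of 15, among them the fits without replicate 3, 4 or 5 (edgeR adjusted p 0.0853, 0.107 and 0.0784).

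Set directly against each other, both stimulated states differed in fewer members. Here too, cell state and kind of stimulus cannot be told apart. In reactivated TH1 against activated naive cells, 43 members were higher, 10 lower and 23 did not pass (43.4% of all tested genes higher and 36.4% lower, 79.8% in either direction), with a median log2 fold change of 0.24 against 0.08 for all genes. The median was 0.31 in the first and 0.24 in the second run alone. The members called higher were 56.6% of the 76. At least 2-fold differences were found for 4 members in the higher direction and none in the lower (23% and 11% of all genes).

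Mrpl34 led with 15.3, 19.97 and 23.1 CPM in reactivated TH1 cells, against 5.03, 5.60 and 6.22 CPM in activated naive cells. The groups did not overlap (log2 fold change 1.78 ± 0.08, edgeR adjusted p 5.76e-16). Mrpl53 was higher by 1.26 ± 0.07, Mrpl18 by 1.23 ± 0.06, Mrpl44 by 1.04 ± 0.05 and Mrpl4 by 0.96 ± 0.07, all without overlap. Of these 5, Mrpl34, Mrpl53, Mrpl18 and Mrpl4 had been lower on activation of naive cells. Mrpl44, a protein with the fold of an RNA-cleaving enzyme, had 58.4, 61.0 and 62.3 CPM in reactivated TH1 cells, 28.3, 29.5 and 30.9 CPM in TH1 effector cells, 26.2, 30.6 and 31.2 CPM in activated naive cells and 17.3, 20.7 and 22.8 CPM in naive cells. Reactivated TH1 libraries stood apart at the top, TH1 effector and activated naive libraries overlapped, and naive ones were lowest.

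At the other end, Mrpl23, of the tunnel exit, had 13.3, 16.4 and 19.4 CPM in reactivated TH1 cells, 14.1, 16.8 and 18.4 CPM in TH1 effector cells, 25.6, 27.8 and 31.3 CPM in activated naive cells and 14.0, 16.5 and 19.6 CPM in naive cells. Activated naive libraries were the only ones apart, above the other 3 groups, which overlapped. The log2 fold change of reactivated TH1 over activated naive cells was -0.81 ± 0.08 (edgeR adjusted p 1.32e-09). Mrpl24, its neighbour at the tunnel exit, had 61.0, 67.4 and 73.2 CPM in reactivated TH1 cells, against 103, 118 and 131 CPM in activated naive cells, without overlap (log2 fold change -0.80 ± 0.05, edgeR adjusted p 1.57e-12). Mrps18b was lower without overlap at -0.34 ± 0.06. Mrpl52 (-0.32 ± 0.08), Mrpl41 (-0.29 ± 0.06), Mrps27 (-0.25 ± 0.06), Mrpl37 (-0.23 ± 0.04), Mrpl19 (-0.20 ± 0.05), Mrpl30 (-0.18 ± 0.06) and Mrps7 (-0.14 ± 0.04) were lower by smaller margins with overlapping libraries. Of these, Mrpl30 did not pass without replicate 6 (edgeR adjusted p 0.0521) or in the first run alone (0.245), Mrps27 failed with the first run only (0.0676), and Mrps7 passed in neither run alone (0.123 and 0.0957).

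Members that belong together in the particle did not always move together. The stalk is built on Mrpl10, which carries several copies of the Mrpl12 protein. Mrpl10 had 53.2, 54.7 and 58.7 CPM in reactivated TH1 cells, 56.2, 60.7 and 65.6 CPM in TH1 effector cells, 50.9, 55.1 and 56.5 CPM in activated naive cells and 46.5, 48.5 and 50.8 CPM in naive cells. Naive libraries were lowest, apart from the others by a narrow gap, and the remaining groups overlapped. Its log2 fold change was 0.16 ± 0.03 on activation, 0.32 ± 0.03 in TH1 effector over naive cells and -0.14 ± 0.03 on recall (edgeR adjusted p 0.0029, 4.60e-07 and 0.00767). With scaling by library totals alone, the first of these was -0.01 and did not pass, and in the second run alone it was 0.16 (edgeR adjusted p 0.0909). Mrpl12 had 144, 159.7 and 176 CPM in reactivated TH1 cells, 63.1, 79.8 and 93.8 CPM in TH1 effector cells, 114, 122 and 135 CPM in activated naive cells and 31.4, 33.8 and 39.2 CPM in naive cells. No groups of Mrpl12 overlapped, and naive libraries were lowest by far.

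The 3 relatives of bacterial S18 differed as well. Mrps18a, which sits in the large subunit, was higher on activation by 1.14 ± 0.04 and on recall by 0.83 ± 0.04, and Mrps18b, in the small subunit, by 2.34 ± 0.06 and 1.35 ± 0.06. Mrps18c, also in the small subunit, was higher on activation by 0.33 ± 0.06, and its log2 fold change on recall was 0.11 ± 0.06, which did not pass (edgeR adjusted p 0.115, or 0.0471 without replicate 5). The difference between its responses, -0.21 ± 0.08, passed narrowly (edgeR adjusted p 0.0479) and failed in 10 of 15 alternative settings. Among these were the fits without replicate 1, 2, 3, 5 or 6, with edgeR adjusted p-values of 0.0546 (without replicate 5) to 0.239 (without replicate 1), and the fit with the replicate block (edgeR adjusted p 0.062). In TH1 effector over naive cells the 3 genes were higher by 0.38 ± 0.04, 0.65 ± 0.06 and 0.50 ± 0.06.

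Mrps12, whose bacterial counterpart forms part of the decoding centre, was higher by 0.71 ± 0.06 on activation and 0.74 ± 0.06 on recall, a difference of 0.03 ± 0.09 that did not pass (edgeR adjusted p 0.835). In TH1 effector over naive cells it was higher by 0.32 ± 0.06 (edgeR adjusted p 0.0897 in the second run alone), and in reactivated TH1 over activated naive cells by 0.34 ± 0.06. Mrps30, a large-subunit protein despite its name, was higher by 0.88 ± 0.04 on activation, 0.56 ± 0.04 on recall and 0.36 ± 0.04 in TH1 effector over naive cells. Mrps36, which is not a ribosomal component, had 18.5, 20.01 and 22.7 CPM in reactivated TH1 cells, 14.3, 15.1 and 17.8 CPM in TH1 effector cells, 13.0, 13.8 and 16.7 CPM in activated naive cells and 6.25, 7.76 and 8.31 CPM in naive cells. It was lowest in naive libraries, without overlap with any other group, and rose by 0.95 ± 0.08 on activation, 1.08 ± 0.08 in TH1 effector over naive cells and 0.37 ± 0.08 on recall (edgeR adjusted p 2.01e-10, 1.63e-11 and 2.47e-04).

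Across the 24 libraries most members followed 1 common course. The correlation of each gene with the mean of all standardised members, itself included, had a median of 0.87 over the 76 genes, exceeded 0.8 for 50 of them and 0.9 for 30. It was highest for Mrpl15 (0.989) and Mrpl12 (0.984) and below 0 for Mrpl24 (-0.59), Mrpl14 (-0.24) and Mrpl49 (-0.07). Outside the members, the genes most alike to that mean were Mdh2, the malate dehydrogenase of the mitochondrial matrix (0.990), Timm13, a carrier of imported proteins (0.989), and the proteasome genes Psmc1 (0.988), Psmd6 (0.987) and Psmd7 (0.986). Mdh2 averaged 401 ± 42.4 CPM in reactivated TH1, 261 ± 30.7 CPM in TH1 effector, 325 ± 34.3 CPM in activated naive and 169 ± 14.0 CPM in naive libraries. These correlations describe 24 libraries in 4 groups and share the group structure, depth and scaling of those libraries.

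Many members lie close to other genes. In GENCODE M21, 24 of 76 (31.6%) start within 500 bases of the start of a gene on the other strand, against 1775 of 19306 protein-coding genes (9.19%). For some of them, such as Mrps11, Mrpl46 and Mrpl13, the first parts of member and partner overlap. Of the 23 such partners that were tested, 17 were higher on activation and 5 lower (41.3% and 40.5% of all tested genes), and 14 were higher and 3 lower on recall (39.9% and 39.8%). Mrps11 and Mrpl46 are partners of each other and count in both. Mrps12 shares its start region with Sars2, the mitochondrial seryl-tRNA synthetase gene, which was higher by 1.03 on activation and 1.11 on recall. In 4 pairs member and partner passed in opposite directions on activation, each time with the member higher. The partners were Klc4 (of Mrpl2) at -2.52, Ncapd2, a condensin gene (of Mrpl51), at -1.78, Mitd1 (of Mrpl30) at -1.22 and Helq (of Mrps18c) at -0.60. Exons of 32 members overlap those of another gene, 8 on the same and 27 on the other strand, and as the strand setting of the counting is not given, their values are uncertain to that extent. Among genes named here this concerns Mrps6, Mrps18b, Mrps18c, Mrpl3, Mrpl10, Mrpl12, Mrpl13, Mrpl14, Mrpl18, Mrpl19, Mrpl24, Mrpl44, Mrpl46, Mrpl48, Mrpl49, Mrpl51, Mrpl53, Mrps7, Mrps11, Mrps25, Mrps26, Mrps27, Mrps30 and Mrps34. Without the 32, the median log2 fold change of the remaining 44 was 0.70 on activation, 0.43 in TH1 effector over naive cells and 0.65 on recall. Reads of Mrpl23, Mrpl48 and Mrps36 may be shared with annotated pseudogenes.

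Some further proteins of the particle carry other names. Of Dap3, Ptcd3, Chchd1, Aurkaip1 and Gadd45gip1, which are mitoribosomal components, 4 were higher on activation and 3 on recall (41.3% and 39.9% of all tested genes), and Dap3, a GTP-binding protein of the small subunit, was lower in both (40.5% and 39.8% of all tested genes). Dap3 had 51.2 ± 2.38 CPM in reactivated TH1, 87.7 ± 6.82 CPM in TH1 effector, 77.2 ± 3.07 CPM in activated naive and 86.6 ± 4.04 CPM in naive libraries. The reactivated libraries were apart below all others, and the log2 fold change was -0.78 ± 0.05 on recall and -0.16 ± 0.05 on activation (edgeR adjusted p 3.51e-13 and 0.00445). Ptcd3, at the entry for mRNA, was higher by 1.05 ± 0.05 on activation and 0.85 ± 0.05 on recall.

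The counts of the lists that follow stand beside 41.3% higher and 40.5% lower of all tested genes on activation, 39.9% and 39.8% on recall, and 44.6% and 40.3% in TH1 effector over naive cells. Factors that build the ribosome were mostly higher in stimulated cells and mostly lower in TH1 effector than in naive cells. Of 25 tested genes for assembly and rRNA modification, 16 were higher and 5 lower on activation, 19 higher and 2 lower on recall, and 6 higher and 15 lower in TH1 effector over naive cells (medians 0.45, 0.51 and -0.25). C1qbp, a matrix protein with a role in mitochondrial translation, was higher by 2.75 ± 0.05 on activation, and Rnmtl1, a methyltransferase of the large rRNA, by 2.18 ± 0.08 on activation and 2.07 ± 0.08 on recall. Mettl15, a methyltransferase of the small rRNA, was lower on activation, at -1.12 ± 0.13. Of 15 translation factors, 7 were higher and 6 lower on activation (46.7% and 40%, near the shares of all genes, median -0.03), and 11 were higher and none lower on recall (median 0.41). Mrrf, which recycles ribosomes, was higher by 1.69 ± 0.08 on activation and 0.76 ± 0.08 on recall, and the elongation factor gene Gfm1 by 1.01 ± 0.05 and 1.18 ± 0.05. Genes for transcription and replication of mitochondrial DNA counted 6 higher and 2 lower of 9 on activation, 7 and 1 on recall, and 3 and 6 in TH1 effector over naive cells. Polrmt, the RNA polymerase itself, was higher by 0.22 ± 0.08 on activation and 1.21 ± 0.08 on recall. The largest change of that list on activation was a fall, of Polg2, with 7.15 ± 1.56 CPM in activated naive against 28.3 ± 3.97 CPM in naive libraries.

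Of 8 tested regulators of mitochondrial gene sets, 5 were higher and 3 lower on activation and 7 higher and none lower on recall. Myc was higher by 3.98 ± 0.11 on activation and by 0.36 ± 0.11 on recall, with resting TH1 cells already 2.83 ± 0.11 above naive ones. Pprc1, a coactivator related to PGC-1, was higher by 2.27 ± 0.07 on activation and 1.38 ± 0.07 on recall, and Gabpb1, a subunit of GABP, by 1.79 ± 0.06 and 1.05 ± 0.06. Ppargc1b was lower on activation, at -2.07 ± 0.16, and higher on recall, at 0.67 ± 0.16. All of these passed the test, with a highest edgeR adjusted p of 0.003, for Myc on recall.

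Of 81 tested cytosolic ribosomal protein genes, 28 were higher and 32 lower on activation (median -0.00) and 6 higher and 40 lower on recall (median -0.13). In TH1 effector over naive cells, 69 were higher and 3 lower (median 0.49). Subunits of the respiratory chain and the ATP synthase counted 56 higher and 12 lower of 73 on activation (median 0.49). On recall they counted 25 higher and 24 lower (median 0.00), and in TH1 effector over naive cells 65 higher and 4 lower (median 0.65). Of these 73, 53 had a lower and 3 a higher log2 fold change in TH1 than in naive cells. Among all tested genes the shares were 33.7% and 34.3%. The median difference of the 73 was -0.44.

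**Figure D5:**
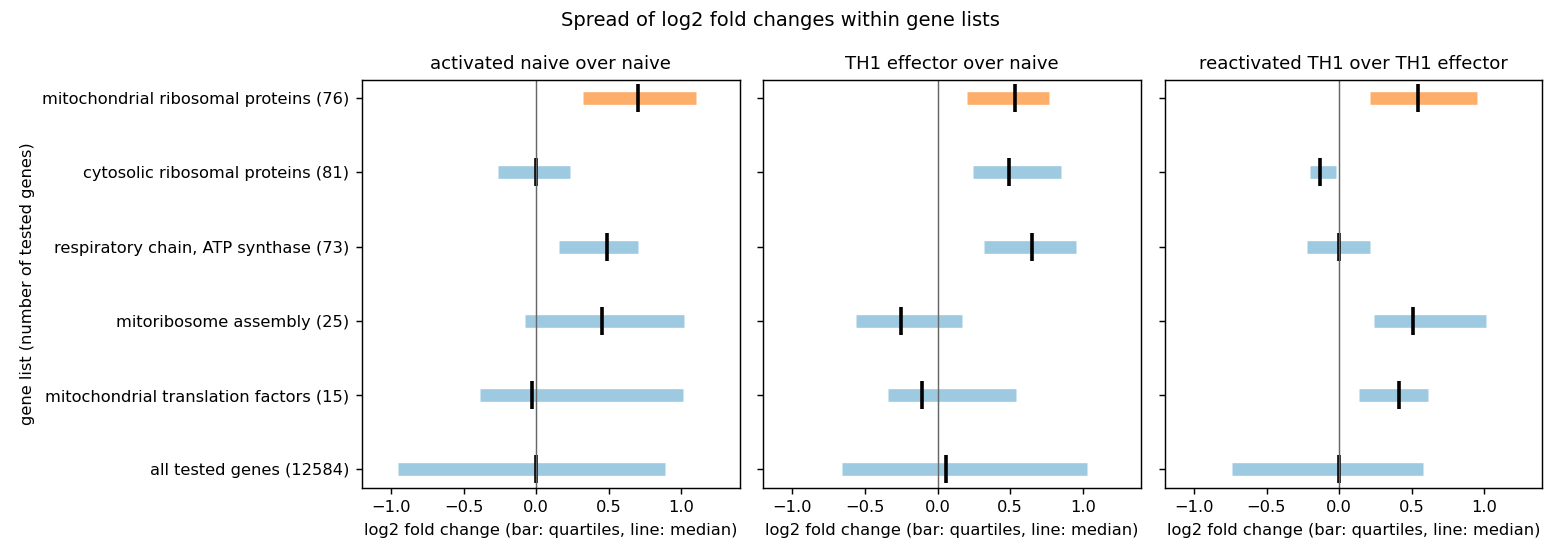
Log2 fold changes of 6 gene lists in 3 comparisons, with a bar from the lower to the upper quartile and a line at the median. The quartiles of the members lie above 0 in all 3 (medians 0.70, 0.53 and 0.54), whereas the medians of cytosolic ribosomal protein genes are -0.00, 0.49 and -0.13.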

How the data were processed

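The deposited files hold raw read counts per gene for 24 libraries of total RNA, made with a stranded Illumina kit per the labels' protocols, with 4 groups of 6. The submitters' processing notes name STAR, HTSeq, DESeq2 and the build mm10, without versions or roles, and neither gene annotation nor strand setting is given in the sources used here. The 5 closing lines of each file, which name no gene, were left out of library sizes and tests: reads outside genes made up 13.2% to 24.4% of the counted reads, ambiguous reads 0.71% to 1.25% and reads with several alignments 5.41% to 7.83%.

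Genes were kept by filterByExpr of edgeR 4.0.16 (R 4.3.3), which left 12584 of 23420, and scaled by TMM. They were tested with the quasi-likelihood test (robust), with group and run as terms over all 24 libraries. Benjamini-Hochberg adjustment was made over all tested genes, with a threshold of 0.05. There were 5 comparisons, the last being the difference between both responses. CPM are counts divided by the TMM-scaled library size. Log2 fold changes come from edgeR, and their standard errors from a linear model with the same terms on log2 CPM (prior count 2). The procedure was tested on simulated data. Depth was 18457653 to 34262645 counts per library, and counting error was not separated from the spread between libraries. Levels per length used exon lengths of GENCODE M21 (GRCm38), on which mm10 is based.

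Named were the 5 highest and 5 lowest members of each comparison, all members passing against the majority, the 3 highest and 3 lowest per length, 8 genes of known role or family (Mrpl10, Mrpl12, Mrps12, Mrps18a, Mrps18b, Mrps18c, Mrps30, Mrps36) and the 5 genes most like the members. Of the leading genes of each companion list, which also entered the alternatives, only some are named. Neighbouring genes and further genes of the short list of other ribosome components were named after their values were seen. The members and lists were chosen with earlier results of these data known. Alternatives were scaling by library totals or RLE, other filters, DESeq2 1.42.0, no run term, a replicate block, single runs, only the groups compared, a minimum change of 1.5-fold and leaving out each replicate number. Figures were drawn with matplotlib 3.10.9.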

Additional observations from a re-analysis of the deposited data

Results flagged for a closer look

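In 4 of 192 sets of 6 libraries, 1 library stood apart from the other 5 by more than Dixon's critical value for sets of 6, where chance gives about 1 in 20. Mrpl22 had 32.2 CPM in reactivated TH1 replicate 1, against 27.1 to 28.6 CPM in the other reactivated libraries. Mrpl45 had 40.1 CPM in activated naive replicate 4, against 44.6 to 47.1 CPM in the others of that group. Among naive libraries, Mrpl14 had 8.365 CPM in replicate 3, against 9.85 to 10.7 CPM in the others, and Mrpl53 had 15.8 CPM in replicate 1, against 13.3 to 14.0 CPM in the others.

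For 27 named members the response of TH1 cells differed from that of naive cells by the test of the difference itself (TH1 minus naive, log2 scale). Values with edgeR adjusted p-values of at most 2.33e-10 were -1.64 for Mrps6, -1.42 for Mrpl52, -1.33 for Mrpl17, -1.02 for Mrpl19 and -0.99 for Mrps18b. Further negative differences were -0.82 for Mrpl12, -0.57 for Mrps36, -0.31 for Mrps18a, -0.31 for Mrps30, -0.29 for Mrpl10 and -0.21 for Mrps18c. Positive differences were 1.05 for Mrpl22, 1.03 for Mrps31, 1.02 for Mrpl53, 0.87 for Mrpl34 and 0.75 for Mrpl49. They were 0.70 for Mrps5, 0.61 for Mrps35, 0.55 for Mrpl38 and 0.52 for Mrpl44. The remaining positive ones were 0.42 for Mrps26, 0.40 for Mrpl3, 0.39 for Mrpl18, 0.35 for Mrpl40, 0.33 for Mrpl37, 0.24 for Mrpl4 and 0.20 for Mrps17. Mrpl34 and Mrpl4 are among them because they fell less in TH1 than in naive cells. In the second run alone, the differences of Mrpl10, Mrps18a and Mrps30 did not pass (edgeR adjusted p 0.0797, 0.091 and 0.0768).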

How the results depend on the processing

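Of 2454 alternative values for 156 named log2 fold changes, 2402 kept their direction and their side of the threshold, 50 no longer passed (21 of them within a single run), 1 newly passed and 1 reversed: Mrpl10 on activation was -0.01 with library totals alone (edgeR adjusted p 0.837). That scaling moved the median of all genes by -0.14 on activation and -0.12 on recall; relative to 0, 11 members were then lower on activation, and the members' median was 0.54 on activation and 0.42 on recall. A minimum change of 1.5-fold left 39 higher and 1 lower on activation, 23 and 1 in TH1 effector over naive cells and 31 and 1 on recall. It left 14 and 2 in reactivated TH1 over activated naive cells, and 5 positive and 9 negative differences between responses. In the same order, 6914, 6695, 5408, 5412 and 4436 of all 12584 tested genes passed it in either direction. Each of these is a larger share than that of the members. The median on recall was 0.48 with RLE, 0.48 with DESeq2, 0.46 with a minimum of 10 CPM and 0.65 without members whose exons overlap other genes, an alternative added after seeing the data, where the median of TH1 effector over naive cells was 0.43. In the first and second run alone the median of TH1 effector over naive cells was 0.60 and 0.40 over all members, that of the difference between responses -0.34 and -0.19 (-0.29 with DESeq2 and -0.29 with a minimum of 10 CPM), and 5 members were lower on recall in the second run. The median of reactivated TH1 over activated naive cells was 0.31 in the first run. The cause was not tested.

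Leaving out each replicate number gave 61 to 63 higher and 7 to 8 lower on activation (median 0.67 to 0.73). The counts were 56 to 60 and 6 to 7 in TH1 effector over naive cells (0.49 to 0.53) and 58 to 60 and 8 on recall (0.52 to 0.56). They were 40 to 43 and 9 to 12 in reactivated TH1 over activated naive cells (0.19 to 0.26). Of the differences between responses, 14 to 16 were positive and 36 to 39 negative (-0.29 to -0.23). The labels carry the same replicate numbers through all 4 groups without saying what a number stands for. The main fit did not pair the libraries by them. Some same-numbered libraries deviated together: 20 of 36 pairs had a correlation of deviations over 0.1 (-0.04 to 0.37). For replicate 4, all pairs lay between 0.26 and 0.37. Of 24 libraries, 10 correlated best with their own number, and whether the libraries are paired stays undecided. With the replicate block, the counts were 63 higher and 7 lower on activation, 59 and 7 in TH1 effector over naive cells and 59 and 8 on recall. They were 44 and 11 in reactivated TH1 over activated naive cells, with 16 positive and 38 negative differences between responses. Among named values, the block ended 1 call, the difference between the responses of Mrps18c (edgeR adjusted p 0.062), and changed no other. A fit of only the groups compared was not run for the difference between responses, which needs all 4.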
